A study of Mus musculus with 36 samples.

Results

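The genes described here are 45 genes of DNA replication and S phase, followed by name in RNA sequencing of 3 cell types of the mouse heart after 1 dose of radiation. They were given as a list of names among the 24061 gene names in the files, by a rule that uses names and not measured values. The list was chosen with earlier results of these data known. All 45 were found. For a name with several RefSeq transcript rows, the row with the most reads over the 36 libraries stood for the gene. Levels are read counts divided by the library's total in M reads (CPM). The list holds 10 genes of origin licensing, 4 of helicase activation, 9 of the polymerases and primase, 6 of the sliding clamp and its loader, 5 of single-strand binding and lagging strand processing, 5 of nucleotide supply, 3 of chromatin assembly and 3 of the G1/S transition.

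The irradiated groups received 12 Gy in 1 fraction from a microirradiator for small animals, and the control groups are labelled as sham. All mice were C57BL/6J with a genotype labelled WT. Endothelial cells, fibroblasts and myocytes of the heart were taken at 6 h, 7 d and 28 d, with 2 libraries in each of the 18 groups, and each time has its own sham libraries. The labels do not say whether the 2 libraries of a group came from separate animals, so the p-values cover the spread between libraries alone, and that spread may be technical.

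Before a cell copies its DNA, the origin recognition complex, Cdc6 and Cdt1 load the ring of Mcm2 to Mcm7 onto origins, and Cdc45 and the GINS proteins then turn the ring into a moving helicase. Polymerases, the clamp Pcna, and the enzymes that make deoxynucleotides follow at the fork, and chromatin assembly factors repack the new strands. Most of these genes are transcribed from late G1 onward under E2F factors, with E2f1 and the E-type cyclins at the entry to S phase. In the adult heart cardiomyocytes seldom divide, while endothelial cells and fibroblasts keep the capacity to do so.

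Counting 1 row per gene, depth ranged between 25.91 and 45.49 M reads for endothelial libraries, between 25.63 and 31.94 M for fibroblast libraries and between 10.18 and 19.42 M for myocyte libraries. Summed levels of 10 marker genes each fitted the labelled types: endothelial markers reached 13842 to 15932 CPM in endothelial libraries, fibroblast markers 64770.4 to 82612 CPM in fibroblast libraries and cardiomyocyte markers 84356 to 106217 CPM in myocyte libraries. Markers of macrophages and monocytes summed to 29.6 to 49.98 CPM in endothelial and 29.5 to 65.9 CPM in fibroblast libraries, and to 594 to 1097 CPM in myocyte libraries. Fibroblast markers summed to 2413 to 6419 CPM in endothelial and 4466 to 7941 CPM in myocyte libraries. Endothelial markers summed to 1341 to 2846 CPM in myocyte libraries, and mesothelial markers to 1140 to 3136 CPM in fibroblast libraries. Smooth muscle and pericyte markers summed to 1611 to 2708 CPM in endothelial, 1343 to 1839 CPM in fibroblast and 629.5 to 1549 CPM in myocyte libraries. The pair of irradiated myocyte libraries of 7 d differed most from each other, with a chi-square per degree of freedom over all genes of 113, against 4.95 to 39.2 in the other 17 groups.

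In sham libraries the replication genes spanned a wide range of expression. Per kilobase of transcript (RPKM, mean ± SD of 6 sham libraries), Pcna, the sliding clamp, was the most abundant member in each type, at 51.9 ± 4.9 in endothelial cells, 34.9 ± 1.5 in fibroblasts and 22.1 ± 1.2 in myocytes. Rpa1, the large subunit of the protein that covers single-stranded DNA, was close to even across types, at 13.3 ± 1.2, 13.4 ± 0.86 and 12.4 ± 0.69 RPKM in the same order. At the other end stood Orc1, a subunit of the origin recognition complex, at 0.124 ± 0.038, 0.115 ± 0.035 and 0.0825 ± 0.055 RPKM, and Mcm10, a helicase activator, at 0.149 ± 0.048, 0.0604 ± 0.032 and 0.071 ± 0.035 RPKM. Neighbours in this order overlapped in their spread for most of the list, while the gap below Pcna exceeded the spread in all 3 types.

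Most of the 45 genes differed between cell types at baseline, as did most of all genes tested. In the contrast of sham fibroblasts with sham endothelial cells, edgeR's quasi-likelihood test with Benjamini-Hochberg adjustment called 5 members higher and 25 lower at an adjusted p under 0.05, where 36.7% and 37.5% of all genes were called higher and lower. The lower ones included 7 of the 10 licensing genes, and in sham myocytes against sham endothelial cells 9 of the 10 were lower. Between sham fibroblasts and sham endothelial cells, Mcm3, a subunit of the helicase ring, had a log2 difference of -1.61 ± 0.08 (estimate ± SE, adjusted p = 4.18e-16). In the same contrast Pola2, the accessory subunit of polymerase alpha, had a log2 difference of -2.13 ± 0.10 (adjusted p = 5.32e-16). E2f1 and Ccne1 went the other way and were among the 5 higher in fibroblasts, E2f1 with a log2 difference of 0.61 ± 0.11 (adjusted p = 2.05e-05). The count of higher members fell to 3 without the second sham fibroblast library of 6 h, and to 3 without the first of 28 d. In sham myocytes against sham endothelial cells 11 members were higher and 31 lower, beside 37.5% and 41.8% of all genes. Dut, which removes dUTP from the nucleotide pool, was higher in myocytes with a log2 difference of 1.44 ± 0.11 (adjusted p = 4.58e-12), and Mcm3 lower with one of -1.84 ± 0.08 (adjusted p = 1.21e-16). Sham myocytes against sham fibroblasts split evenly, with 16 members higher and 16 lower beside 39.4% and 41.9% of all genes.

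In endothelial cells the replication genes that passed were below sham at 6 h and 7 d after 12 Gy, and all but 2 of those that passed at 28 d were above it. At 6 h no member was called higher and 9 were called lower, where 6.1% and 5.23% of all 14919 genes tested were. At 7 d 0 members were higher and 3 lower, beside 0.925% and 0.891% of all genes. At 28 d 18 were higher and 2 lower, beside 5.72% and 4.25% of all genes. The median log2 fold change of the 45 members was -0.22 at 6 h, -0.19 at 7 d and 0.32 at 28 d, while that of all genes lay within 0.01 of 0 at each time. At 6 h both irradiated libraries lay above both sham libraries for 4 members and below them for 20, while 21 overlapped, and 31.2% and 19.8% of all genes tested lay above and below. At 7 d 2 members lay above, 29 below and 14 overlapped, beside 23.3% and 20.6% of all genes. At 28 d 32 lay above, 2 below and 11 overlapped, beside 29.3% and 28% of all genes. In bulk RNA, fewer cells of a type, such as cells in S phase, and less RNA per cell cannot be told apart.

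The summed level of the 45 genes took the same course. At 6 h the sum was 833 and 772 CPM in irradiated endothelial libraries and 910 and 870 CPM in sham libraries. At 7 d it was 790 and 778 CPM in irradiated libraries, against 854 and 864 CPM in sham libraries. By 28 d it was 900 and 981 CPM in irradiated libraries, against 773 and 783 CPM in sham libraries. The groups did not overlap at any of the 3 times.

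**Figure D1:**
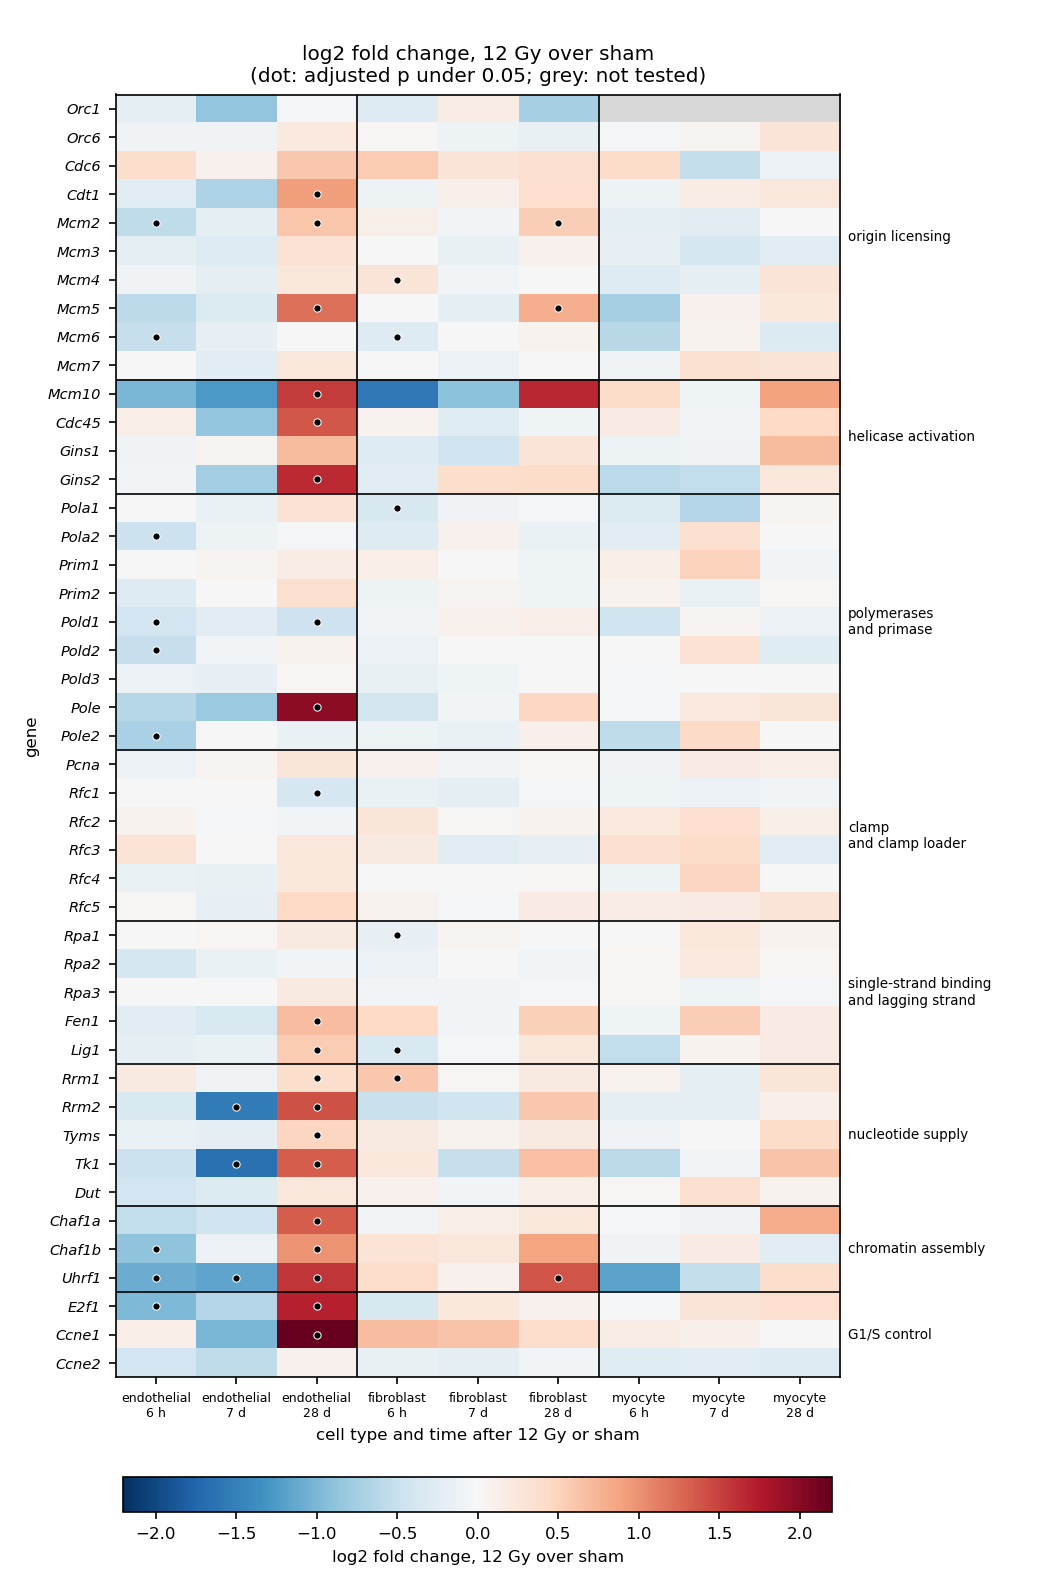
Log2 fold change of 12 Gy over sham (colour) for the 45 genes, in rows by role, in each cell type and time, in columns; a dot marks an adjusted p under 0.05 and grey a gene that was not tested. The endothelial column of 28 d holds 18 dots on red and 2 on blue, and the myocyte columns hold no dot.

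The count at 6 h rested much on single libraries: 1 member, Mcm6, was called without the first sham library of that time and 2 without the second irradiated one. At 28 d the count of higher members was 9 and 8 when the first or the second sham library was left out, and 24 and 8 when the first or the second irradiated library was. Rrm2, E2f1, Uhrf1, Mcm5, Pole, Tk1, Chaf1a and Cdc45 were called higher whichever of these 4 libraries was left out.

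The genes at the entry to S phase had some of the largest differences. E2f1, the transcription factor that drives many of the other members (chr2:154559400-154569892, GRCm38), had 2.42 and 2.17 CPM in irradiated endothelial libraries at 6 h, against 4.86 and 3.92 CPM in sham libraries. At 28 d it had 8.63 and 12.0 CPM in irradiated libraries, against 2.87 and 3.41 CPM in sham libraries. The groups did not overlap at either time: E2f1 was lower at 6 h with a log2 fold change of -0.99 ± 0.22 (adjusted p = 0.0119) and higher at 28 d with one of 1.71 ± 0.21 (adjusted p = 0.000263). At 7 d, 2.84 and 2.58 CPM in irradiated libraries stood below 3.95 and 4.40 CPM in sham libraries, a log2 fold change of -0.64 ± 0.22 that did not pass (adjusted p = 0.269). The E2f1 call of 6 h was lost without the first sham library (adjusted p = 0.116) and without the second irradiated one (adjusted p = 0.0811).

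The E-type cyclins, partners of Cdk2 at the G1/S boundary, differed from each other at 28 d. Ccne1 had 1.56 and 1.97 CPM in irradiated endothelial libraries, against 0.495 and 0.286 CPM in sham libraries. Its log2 fold change of 2.22 ± 0.44 (adjusted p = 0.00652) was the largest of the 45 at 28 d, at a low level of expression, and it was not called without the second sham library (adjusted p = 0.118) or the second irradiated one (adjusted p = 0.0513). Ccne2 had 7.59 and 7.26 CPM in irradiated libraries, against 7.72 and 6.31 CPM in sham libraries, so the groups overlapped.

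All 3 genes of chromatin assembly were called higher than the sham libraries of 28 d, and they include the member with the most calls. Uhrf1 encodes a protein that brings the maintenance methyltransferase Dnmt1 to newly copied DNA. Its gene lies at chr17:56303337-56323486 (GRCm38). Uhrf1 was called in 3 endothelial comparisons and 1 fibroblast comparison. Its promoter is shown because its p at 28 d in endothelial libraries was among the smallest of the members. The window runs from 250 bases before to 50 after a RefSeq transcript start (assembly GRCm38.p6, plus strand, chr17:56304063-56304362), 1 of 2 such windows of the gene, and capitals mark an E2F word (TTTCCCGC, TTTGGCGC, TTTCGCGC or TTTGCCGC on either strand). The other window, at chr17:56303087-56303386, holds 0 such words. The window of E2f1, also among the members with the smallest p at 28 d, holds 0 such words and is not printed.
Uhrf1: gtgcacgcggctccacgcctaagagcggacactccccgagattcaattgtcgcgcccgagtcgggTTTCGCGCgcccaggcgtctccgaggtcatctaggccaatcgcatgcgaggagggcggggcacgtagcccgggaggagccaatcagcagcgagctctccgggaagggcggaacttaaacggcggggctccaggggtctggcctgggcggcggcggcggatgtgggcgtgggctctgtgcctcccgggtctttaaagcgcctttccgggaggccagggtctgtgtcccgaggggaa

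Uhrf1 had 4.78 and 5.01 CPM in irradiated endothelial libraries at 6 h, against 11.6 and 8.59 CPM in sham libraries. At 7 d it had 4.99 and 3.99 CPM in irradiated libraries, against 10.3 and 9.39 CPM in sham libraries. By 28 d it had 15.1 and 22.2 CPM in irradiated libraries, against 6.44 and 6.18 CPM in sham libraries. The groups were apart at all 3 times, in the order low, low and high after irradiation. The log2 fold changes were -1.10 ± 0.22 at 6 h (adjusted p = 0.00574), -1.16 ± 0.22 at 7 d (adjusted p = 0.0135) and 1.57 ± 0.21 at 28 d (adjusted p = 0.000516). The call of 6 h was lost without the first sham library (adjusted p = 0.0741), and that of 7 d without the first sham library (adjusted p = 0.129) or the second irradiated one (adjusted p = 0.213).

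Chaf1a and Chaf1b encode the large and middle subunits of chromatin assembly factor 1, which places histones on new DNA. At 28 d Chaf1a had 8.6001 and 11.96 CPM in irradiated endothelial libraries, against 3.82 and 4.27 CPM in sham libraries, a log2 fold change of 1.34 ± 0.21 (adjusted p = 0.00176). Chaf1b had 2.67 and 3.32 CPM in irradiated libraries of 28 d, against 1.66 and 1.39 CPM in sham libraries. At 6 h Chaf1b had 2.36 and 2.28 CPM in irradiated libraries, against 4.72 and 3.51 CPM in sham libraries, and was lower with a log2 fold change of -0.88 ± 0.26 (adjusted p = 0.0456). Both subunits therefore passed at 28 d and Chaf1b passed in opposite directions at 6 h and 28 d, each time against the sham libraries of that time. The sham level of Chaf1b itself was lower at 28 d, at 1.66 and 1.39 CPM against 4.72 and 3.51 CPM at 6 h. Its irradiated libraries stood at 2.36 and 2.28 CPM at 6 h and at 2.67 and 3.32 CPM at 28 d. Chaf1b was the weaker: its call of 6 h was lost without the first sham library (adjusted p = 0.31), the first irradiated one (adjusted p = 0.113) or the second (adjusted p = 0.169), and its call of 28 d without either sham library or the second irradiated one (adjusted p up to 0.281).

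Of the nucleotide supply genes 4 of 5 rose at 28 d. Rrm2, the small subunit of ribonucleotide reductase whose level follows S phase, lies at chr12:24708254-24714146 (GRCm38) and had the smallest p of the members at 28 d. Its RefSeq promoter window (assembly GRCm38.p6, plus strand, chr12:24708004-24708303) holds none of the 4 E2F words, so it stands in lower case throughout. It holds 1 CCAAT box.
Rrm2: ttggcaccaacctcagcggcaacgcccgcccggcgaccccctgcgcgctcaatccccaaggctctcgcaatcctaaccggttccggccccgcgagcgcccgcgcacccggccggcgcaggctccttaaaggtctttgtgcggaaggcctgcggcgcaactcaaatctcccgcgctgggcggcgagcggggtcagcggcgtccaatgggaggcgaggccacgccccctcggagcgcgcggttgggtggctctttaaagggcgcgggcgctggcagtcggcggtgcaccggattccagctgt

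Rrm2 had 5.53 and 4.27 CPM in irradiated endothelial libraries at 6 h, against 5.63 and 6.28 CPM in sham libraries. At 7 d it had 2.405 and 2.418 CPM in irradiated libraries, against 7.04 and 6.90 CPM in sham libraries. By 28 d it had 12.7 and 14.5 CPM in irradiated libraries, against 4.64 and 5.58 CPM in sham libraries. Irradiated libraries were thus below sham at 7 d and above it at 28 d, with log2 fold changes of -1.54 ± 0.18 (adjusted p = 0.000243) and 1.40 ± 0.16 (adjusted p = 0.000163). Both calls held without any 1 library.

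Tk1, the thymidine kinase of the salvage pathway, went with Rrm2. It had 1.33 and 1.25 CPM in irradiated endothelial libraries at 7 d, against 3.92 and 4.06 CPM in sham libraries, and 6.03 and 7.83 CPM in irradiated libraries at 28 d, against 2.87 and 2.66 CPM in sham libraries. The log2 fold changes were -1.64 ± 0.23 at 7 d (adjusted p = 0.00136) and 1.33 ± 0.21 at 28 d (adjusted p = 0.00144). Rrm1, the large subunit of ribonucleotide reductase, moved less at 28 d, with 52.1 and 61.0 CPM in irradiated libraries and 43.1 and 43.3 CPM in sham libraries (log2 fold change 0.39 ± 0.09, adjusted p = 0.0188). Tyms, which makes thymidylate, had 14.9 and 14.7 CPM in irradiated libraries, against 11.3 and 10.2 CPM in sham libraries (log2 fold change 0.47 ± 0.12, adjusted p = 0.0324). Rrm1 and Tyms were not called without either sham library or the second irradiated one of 28 d, with adjusted p up to 0.143 for Rrm1 and 0.251 for Tyms. Dut did not pass, with 10.6 and 11.1 CPM in irradiated libraries of 28 d and 8.99 and 9.32 CPM in sham libraries.

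**Figure D2:**
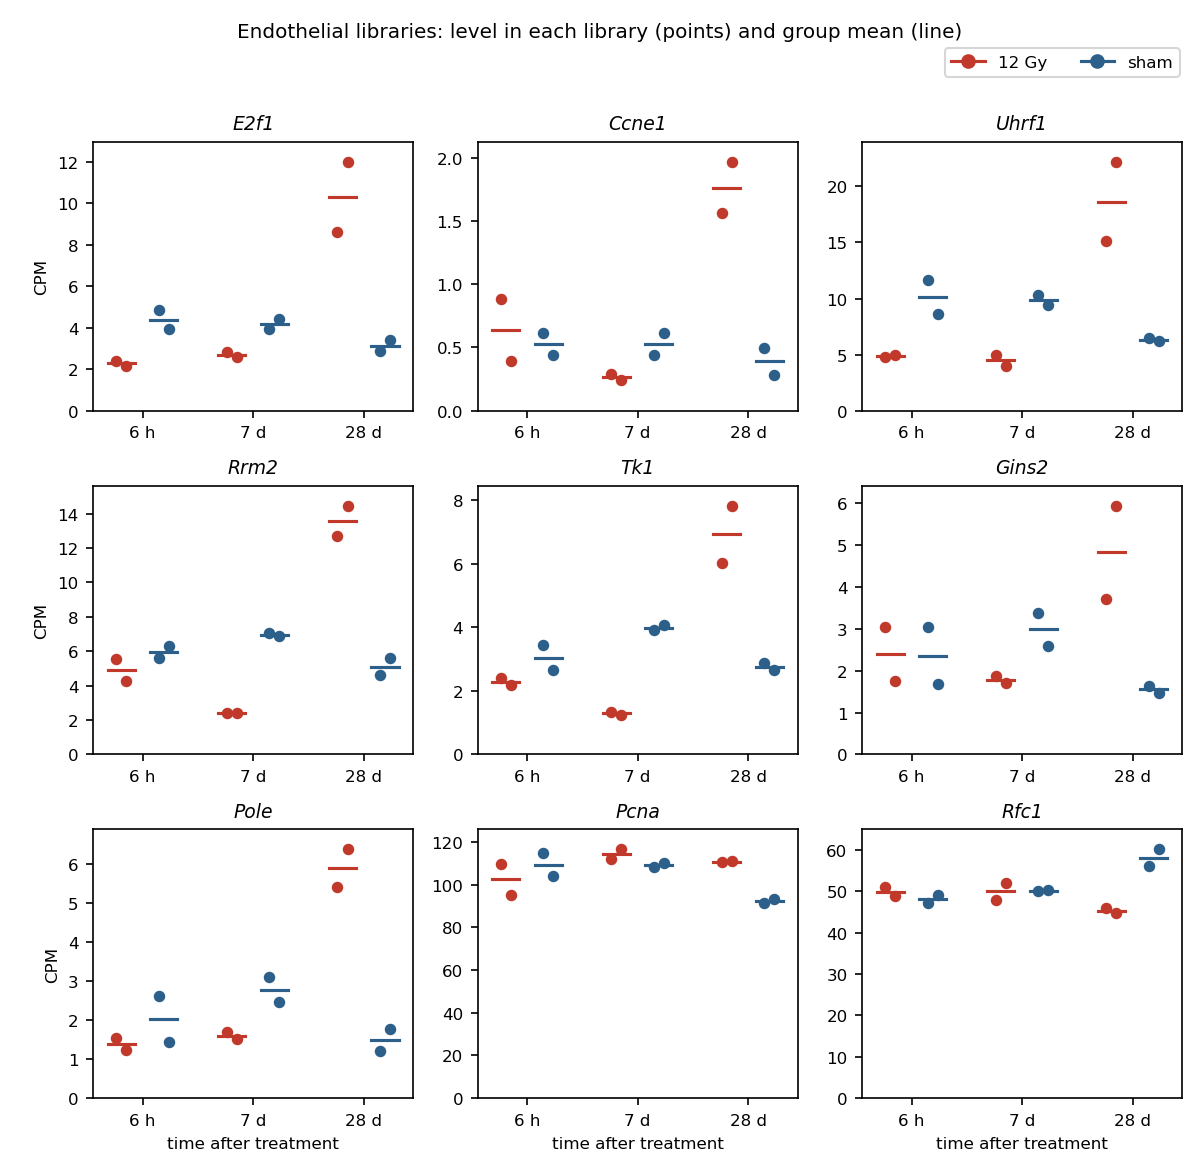
Level in CPM (y axis) of 9 genes in each endothelial library (points) with the group mean (line), 12 Gy beside sham at 6 h, 7 d and 28 d (x axis). For E2f1, Ccne1, Uhrf1, Rrm2, Tk1, Gins2 and Pole both irradiated libraries of 28 d lie above every sham library, while Pcna lies at 111 CPM in both irradiated libraries of 28 d, against 91.3 and 93.2 CPM in sham libraries, and Rfc1 is below sham.

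Of the 10 licensing genes Cdt1, Mcm2 and Mcm5 rose at 28 d, and the 6 subunits of the helicase ring did not move as 1 unit. Mcm5 (chr8:75109468-75128439, GRCm38) had 31.2 and 40.9 CPM in irradiated endothelial libraries at 28 d, against 14.4 and 16.5 CPM in sham libraries. Mcm6 (chr1:128331575-128359705) had 56.9 and 62.9 CPM in irradiated libraries, against 58.6 and 61.1 CPM in sham libraries, and the groups overlapped. The log2 fold change at 28 d was 1.22 ± 0.18 for Mcm5 (adjusted p = 0.000963) and 0.00 ± 0.08 for Mcm6 (adjusted p = 0.99). At 6 h Mcm6 passed and Mcm5 did not. Mcm6 had 50.1 and 51.7 CPM in irradiated libraries, against 67.9 and 72.2 CPM in sham libraries, a log2 fold change of -0.50 ± 0.08 (adjusted p = 0.00214) that held without any 1 library. Mcm5 had 20.01 and 17.1 CPM in irradiated libraries at 6 h, against 30.7 and 22.8 CPM in sham libraries, with a log2 fold change of -0.58 ± 0.18 just outside the threshold (adjusted p = 0.051).

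Both genes hold E2F words in their promoter windows. They are shown side by side as subunits of the same ring. Of this pair Mcm5 rose at 28 d and Mcm6 did not, and the pair was chosen after their values were seen. The windows have the same length and source as above, Mcm5 at chr8:75109259-75109558 on the plus strand and Mcm6 at chr1:128359656-128359955 on the minus strand, and capitals mark E2F words. Mcm5 holds 2 overlapping words, which begin 153 and 149 bases before the start, and Mcm6 holds 3, which begin 110 to 47 bases before it.
Mcm5: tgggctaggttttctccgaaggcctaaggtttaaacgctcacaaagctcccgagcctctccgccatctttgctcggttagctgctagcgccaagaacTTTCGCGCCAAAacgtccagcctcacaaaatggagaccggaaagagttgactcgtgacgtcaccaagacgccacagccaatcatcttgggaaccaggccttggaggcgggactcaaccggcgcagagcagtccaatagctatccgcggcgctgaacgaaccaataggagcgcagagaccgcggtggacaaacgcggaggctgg
Mcm6: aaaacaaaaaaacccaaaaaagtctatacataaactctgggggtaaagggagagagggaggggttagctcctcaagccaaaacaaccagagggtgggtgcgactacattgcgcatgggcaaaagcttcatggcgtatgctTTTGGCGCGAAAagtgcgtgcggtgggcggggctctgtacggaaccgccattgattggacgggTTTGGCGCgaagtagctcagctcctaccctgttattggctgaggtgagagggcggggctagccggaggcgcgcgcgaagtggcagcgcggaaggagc

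Mcm2, another subunit of the ring, passed in both directions. It had 20.2 and 20.1 CPM in irradiated endothelial libraries at 6 h, against 31.1 and 26.3 CPM in sham libraries (log2 fold change -0.56 ± 0.14, adjusted p = 0.0251). At 28 d it had 30.3 and 39.1 CPM in irradiated libraries, against 22.7 and 22.6 CPM in sham libraries (log2 fold change 0.62 ± 0.14, adjusted p = 0.0176). The remaining subunits did not pass at 28 d: Mcm3 had 50.5 and 56.2 CPM in irradiated libraries, against 41.5 and 43.6 CPM in sham libraries (log2 fold change 0.32 ± 0.11, adjusted p = 0.0758). Mcm4 had 30.6 and 39.3 CPM in irradiated libraries, against 29.2 and 29.5 CPM in sham libraries, and Mcm7 had 26.7 and 33.0 CPM in irradiated libraries, against 24.2 and 25.7 CPM in sham libraries. Cdt1, the factor that loads the ring, had 7.07 and 9.38 CPM in irradiated libraries of 28 d, against 4.32 and 4.40 CPM in sham libraries (log2 fold change 0.92 ± 0.18, adjusted p = 0.00684). Its partner Cdc6 had 5.48 and 7.95 CPM in irradiated libraries, against 4.74 and 4.20 CPM in sham libraries, and did not pass (log2 fold change 0.59 ± 0.20, adjusted p = 0.0788). The 28 d calls of Mcm2 and Cdt1 were lost without either sham library or the second irradiated one (adjusted p up to 0.157 for Mcm2 and 0.0695 for Cdt1), and the 6 h call of Mcm2 without the first sham library (adjusted p = 0.219) or either irradiated one (adjusted p = 0.0786 and 0.1). Orc1 and Orc6, subunits of the origin recognition complex, passed at no time.

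**Figure D3:**
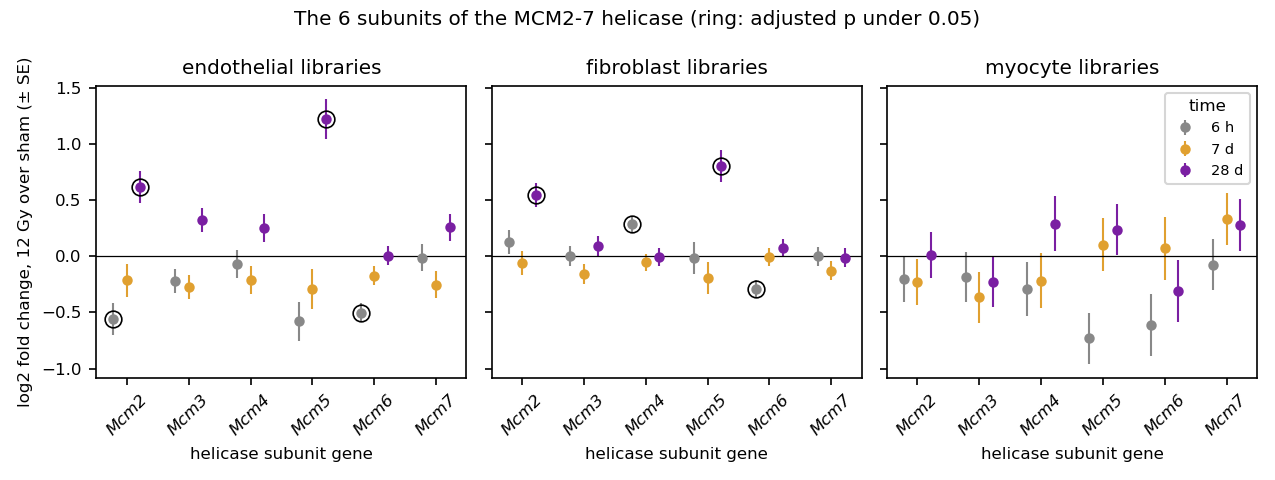
Log2 fold change of 12 Gy over sham ± SE (y axis) for the 6 subunits of the helicase ring (x axis) at 6 h, 7 d and 28 d in the 3 cell types; a ring marks an adjusted p under 0.05. Mcm5 stands highest at 28 d in endothelial libraries, at 1.22, and in fibroblast libraries, at 0.80, while Mcm6 lies at 0.00 in endothelial libraries of 28 d.

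The genes that activate the helicase rose at 28 d in 3 of 4 cases. Cdc45, which joins the ring to make the active helicase, had 5.44 and 6.29 CPM in irradiated endothelial libraries, against 1.73 and 2.70 CPM in sham libraries (log2 fold change 1.37 ± 0.22, adjusted p = 0.00177). Gins2, a subunit of the GINS complex, had 3.71 and 5.94 CPM in irradiated libraries, against 1.63 and 1.47 CPM in sham libraries (log2 fold change 1.64 ± 0.35, adjusted p = 0.0109). Mcm10 also passed, with 1.84 and 1.81 CPM in irradiated libraries, against 0.531 and 0.704 CPM in sham libraries. Groups were apart for each of the 3. Gins1, the remaining GINS gene of the list, did not pass, with 1.01 and 1.27 CPM in irradiated libraries and 0.779 and 0.638 CPM in sham libraries. Gins2 and Mcm10 were not called without either sham library or the second irradiated one of 28 d (adjusted p up to 0.115 and 0.105). The 4 genes summed to 12.0 and 15.3 CPM in irradiated libraries, against 4.67 and 5.52 CPM in sham libraries.

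Of the 9 polymerase and primase genes 4 were lower at 6 h, and at 28 d 1 rose and 1 fell. Pole, the catalytic subunit of the leading strand polymerase epsilon, had 5.41 and 6.37 CPM in irradiated endothelial libraries at 28 d, against 1.20 and 1.76 CPM in sham libraries, a log2 fold change of 1.96 ± 0.30 (adjusted p = 0.00122). Its accessory subunit Pole2 did not pass at 28 d, with 3.85 and 3.13 CPM in irradiated libraries and 3.681 and 4.001 CPM in sham libraries. Pold1, the catalytic subunit of polymerase delta, was lower at 28 d, with 33.3 and 26.2 CPM in irradiated libraries, against 41.8 and 39.9 CPM in sham libraries (log2 fold change -0.46 ± 0.10, adjusted p = 0.0143). The 28 d call of Pold1 was lost without either sham library or the second irradiated one (adjusted p up to 0.128).

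The 4 polymerase genes called at 6 h belong to 3 complexes, and the other 5 members of the group did not pass. Pold1 had 31.89 and 32.02 CPM in irradiated endothelial libraries, against 40.8 and 42.1 CPM in sham libraries (log2 fold change -0.42 ± 0.10, adjusted p = 0.0206). Pold2, an accessory subunit of polymerase delta, had 16.7 and 16.4 CPM in irradiated libraries, against 24.1 and 21.6 CPM in sham libraries (log2 fold change -0.51 ± 0.12, adjusted p = 0.0145). Pole2 had 2.89 and 2.68 CPM in irradiated libraries, against 4.56 and 4.33 CPM in sham libraries (log2 fold change -0.72 ± 0.17, adjusted p = 0.0181). Pola2 had 38.4 and 33.8 CPM in irradiated libraries, against 54.0 and 42.2 CPM in sham libraries (log2 fold change -0.46 ± 0.12, adjusted p = 0.025). None of the 4 overlapped between groups, yet each call depended on the libraries: Pold1 was lost whichever library of 6 h was left out (adjusted p 0.0584 to 0.093), and Pold2, Pole2 and Pola2 without the first sham library (adjusted p = 0.133, 0.118 and 0.251) or the second irradiated one (adjusted p = 0.0661, 0.1 and 0.147).

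Of the 6 clamp and loader genes 1 passed at 28 d, lower, and of the 5 genes of single-strand binding and the lagging strand 2 passed, higher. Pcna had 111 CPM in both irradiated endothelial libraries of 28 d, against 91.3 and 93.2 CPM in sham libraries, and its log2 fold change of 0.26 ± 0.09 did not pass (adjusted p = 0.0834). Rfc1, the large subunit of the clamp loader, was lower, with 45.9 and 44.7 CPM in irradiated libraries, against 56.0 and 60.1 CPM in sham libraries (log2 fold change -0.36 ± 0.08, adjusted p = 0.0104). The call of Rfc1 was lost without the second sham library (adjusted p = 0.146) or the second irradiated one (adjusted p = 0.0525). The other 4 loader genes and the 3 genes of replication protein A passed at no time in endothelial libraries. On the lagging strand, Lig1, the ligase that joins Okazaki fragments, had 22.7 and 25.4 CPM in irradiated libraries of 28 d, against 16.3 and 16.4 CPM in sham libraries (log2 fold change 0.56 ± 0.12, adjusted p = 0.0102). Fen1, the flap nuclease that trims those fragments, also passed, with 8.95 and 12.8 CPM in irradiated libraries and 6.90 and 6.73 CPM in sham libraries. Lig1 and Fen1 were not called without either sham library or the second irradiated one (adjusted p up to 0.0893 and 0.209).

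At 7 d the 3 calls stood among many members below sham that did not pass. Cdc45 had 2.15 and 1.94 CPM in irradiated endothelial libraries, against 3.71 and 3.55 CPM in sham libraries (log2 fold change -0.84 ± 0.23, adjusted p = 0.111). Cdt1 had 4.16 and 3.24 CPM in irradiated libraries, against 5.66 and 6.04 CPM in sham libraries (log2 fold change -0.68 ± 0.19, adjusted p = 0.119). Ccne2 had 5.24 and 4.62 CPM in irradiated libraries, against 7.31 and 7.00 CPM in sham libraries (log2 fold change -0.55 ± 0.17, adjusted p = 0.181). For these 3 the groups were apart. Pcna was the abundant exception in direction, with 112 and 117 CPM in irradiated libraries of 7 d and 108 and 110.0 CPM in sham libraries, and it did not pass.

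The change with time was itself tested in endothelial libraries. An F-test of whether the difference between 12 Gy and sham varied over the 3 times called 17 of the 45 members, beside 6.26% of all genes. The 28 d difference exceeded the 7 d difference for 12 members and fell short of it for 0, beside 1.48% and 0.248% of all genes. Ccne1 had the largest such contrast, 3.23 ± 0.69 on the log2 scale (adjusted p = 0.029). Tk1 had 2.97 ± 0.31 (adjusted p = 0.000113), followed by Rrm2 at 2.94 ± 0.24 (adjusted p = 1.7e-05), Uhrf1 at 2.72 ± 0.31 (adjusted p = 0.000197) and E2f1 at 2.35 ± 0.30 (adjusted p = 0.00066). Mcm5 had 1.51 ± 0.25 (adjusted p = 0.00496) and Cdc45 2.22 ± 0.32 (adjusted p = 0.00156). All 3 members lower at 7 d, Rrm2, Tk1 and Uhrf1, were among the 18 higher at 28 d, which is 100% of the first list and 16.7% of the second. Of the 9 members lower at 6 h, Chaf1b, E2f1, Mcm2 and Uhrf1 were higher at 28 d, 44.4% of the first list and 22.2% of the second. Leaving out a 28 d library changed the F-test count to 11 (first sham), 10 (second sham) or 11 (second irradiated), and the count of the 28 d over 7 d contrast was 19 without the first irradiated library of 28 d.

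The sham level was not constant over time, for some members as for genes at large. Among sham endothelial libraries the F-test over the 3 times called 12 of the 45 members, close to the share of 27.4% of all genes. The 12 include Chaf1b (adjusted p = 0.00672), Pold1 (adjusted p = 0.0103) and Mcm5 (adjusted p = 0.0115). Mcm5 had 30.7 and 22.8 CPM in sham libraries of 6 h, 25.02 and 24.27 CPM at 7 d and 14.4 and 16.5 CPM at 28 d, so its sham level was lowest at 28 d. Leaving out 1 of these libraries changed the count of 12 to 5 (first of 6 h), 5 and 7 (first and second of 7 d) or 2 and 1 (first and second of 28 d).

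At 28 d the members that rose were mostly those of low expression in sham endothelial cells. The 18 higher members had a median sham level of 4.20 CPM (range 0.391 to 43.2), and the other 27 a median of 13.5 CPM (range 0.6 to 92.2). Of 15 members under 5 CPM in sham libraries 10 were called higher, of 17 between 5 and 20 CPM 6 were, and of 13 at 20 CPM or more 2 were, Mcm2 and Rrm1. The fold change is computed from these same sham libraries, and low genes have larger errors, so the counts describe the list and are not a test.

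**Figure D4:**
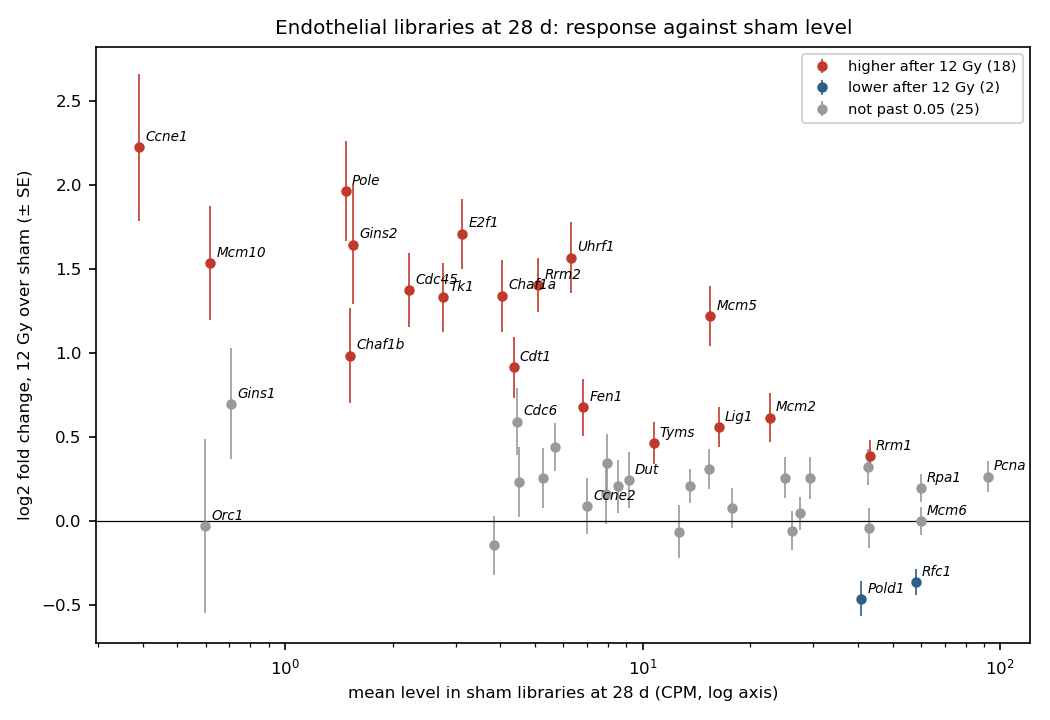
Log2 fold change of 12 Gy over sham ± SE at 28 d (y axis) against the mean sham level at 28 d (x axis, CPM, log axis) for the 45 genes in endothelial libraries, coloured by call. The 18 genes higher after 12 Gy reach 2.22 for Ccne1, and the abundant members Pcna, Rpa1 and Mcm6 lie between 0.00 and 0.26.

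Of the 38 members with a promoter window in the RefSeq table (300 bases, GRCm38.p6), 14 held an E2F word, 36.8%, against 704 of 27025 genes of the table, 2.6%. A CCAAT box (CCAAT on either strand) was found in 57.9% of members and 41.1% of all genes, and the word TTTGAA or TTCGAA in 15.8% and 21.7%. By call, 4 of the 16 higher at 28 d in endothelial libraries with a window held an E2F word, 25%, against 10 of the other 22, 45.5%. A gene with several windows was counted once, and a word in these windows is a match of letters only.

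Other genes of the pathway, listed by function, were set beside the members in endothelial libraries of 28 d, where 5.72% of all genes rose and 4.25% fell. In the list of other origin and helicase genes 1 of 18 rose, Ticrr, which acts before Cdc45 in origin firing, with 1.49 and 1.43 CPM in irradiated libraries and 0.283 and 0.242 CPM in sham libraries (log2 fold change 2.48 ± 0.45, adjusted p = 0.00418). In the list of other fork genes 5 of 20 rose and 0 fell, among them the nuclease Exo1 (log2 fold change 2.12 ± 0.33, adjusted p = 0.00155), the checkpoint mediator Clspn (2.08 ± 0.34, adjusted p = 0.00225) and the histone chaperone Asf1b (1.82 ± 0.32, adjusted p = 0.0036). Of 15 other nucleotide supply genes 3 rose, with Ctps, which makes CTP, at 0.75 ± 0.10 (adjusted p = 0.000589). Of 24 genes of E2F, RB and the G1/S kinases 9 rose and 1 fell. Those that rose include both Ccnd1, which promotes entry into S phase (log2 fold change 1.62 ± 0.10, adjusted p = 1.11e-06), and Cdkn1a, an inhibitor of cyclin kinases (1.33 ± 0.17, adjusted p = 0.000371). Cdkn1b, another such inhibitor, was the 1 that fell (-0.57 ± 0.10, adjusted p = 0.00249).

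The same lists were counted at the earlier times in endothelial libraries. At 6 h, where 6.1% of all genes were higher and 5.23% lower, the origin list had 1 gene higher, the fork list 2 higher, the nucleotide list 2 higher and 2 lower, and the E2F and RB list 3 higher and 3 lower. Cad, the first enzyme of pyrimidine synthesis, had 66.7 and 72.5 CPM in irradiated libraries of 6 h, against 33.1 and 34.1 CPM in sham libraries (log2 fold change 1.01 ± 0.09, adjusted p = 1.31e-05). Rbl2, a pocket protein that restrains E2F genes in resting cells, had 86.08 and 86.11 CPM in irradiated libraries, against 42.09 and 38.85 CPM in sham libraries (log2 fold change 1.05 ± 0.09, adjusted p = 1.04e-05). At 7 d, beside 0.925% and 0.891% of all genes, the E2F and RB list had 2 genes higher and 2 lower and the other 3 lists had none. E2f8, a repressor of the E2F family that peaks in S phase, had 0.287 and 0.319 CPM in irradiated libraries of 7 d, against 1.532 and 1.502 CPM in sham libraries (log2 fold change -2.31 ± 0.34, adjusted p = 0.00171).

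Genes of mitosis moved in the same directions. Of 10 mitosis genes 9 were lower at 6 h, 10 lower at 7 d and 10 higher at 28 d in endothelial libraries, with median log2 fold changes of -1.20, -2.04 and 1.98. Against these, the medians of the 45 replication genes were -0.22, -0.19 and 0.32.

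Markers of other cell types were counted beside the endothelial result of 28 d. Erythroid genes were lower in 5 of 6 cases, and summed to 1041 and 431 CPM in irradiated libraries, against 2148 and 1616 CPM in sham libraries. Cardiomyocyte markers were lower in 2 of 10 cases, fibroblast markers in 2 of 10 and endothelial markers in 1 of 10, smooth muscle and pericyte markers were higher in 1 of 10, and macrophage, lymphocyte and mesothelial markers passed in 0 of 9, 0 of 6 and 0 of 9. Fibroblast markers summed to 4399 and 4192 CPM in irradiated libraries of 28 d, against 4408 and 6419 CPM in sham libraries. At 6 h 2 of 10 endothelial, 1 of 6 lymphocyte and 1 of 10 smooth muscle and pericyte markers were lower and 2 of 10 fibroblast and 1 of 9 macrophage markers were higher, and at 7 d none passed. The part of these genes in the results on the replication genes was not tested.

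In fibroblasts fewer replication genes passed, and the few that did were different ones at 6 h and 28 d. At 6 h 2 members were higher and 4 lower, beside 12.3% and 12.3% of all 14998 genes tested. At 7 d 0 were higher and 0 lower, beside 1.51% and 0.327% of all genes. Of the members 2 had an unadjusted p under 0.05, and DESeq2 and limma also called 0. At 28 d 3 members were higher and 0 lower, beside 2.48% and 0.813% of all genes. The median log2 fold change of the members was -0.06, -0.04 and 0.09 at 6 h, 7 d and 28 d.

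Rrm1 had the clearest difference at 6 h in fibroblasts (chr7:102441695-102469771, GRCm38). Its RefSeq promoter window (assembly GRCm38.p6, plus strand, chr7:102441445-102441744) is shown for that reason. It holds none of the 4 E2F words, so it stands in lower case throughout, and it holds 2 CCAAT boxes.
Rrm1: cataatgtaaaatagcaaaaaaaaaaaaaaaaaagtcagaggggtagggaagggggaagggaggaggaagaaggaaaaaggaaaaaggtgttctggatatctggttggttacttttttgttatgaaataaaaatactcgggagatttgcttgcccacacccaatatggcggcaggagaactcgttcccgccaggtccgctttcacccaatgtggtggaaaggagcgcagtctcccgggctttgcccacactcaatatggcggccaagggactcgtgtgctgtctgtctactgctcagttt

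Rrm1 had 63.3 and 62.2 CPM in irradiated fibroblast libraries at 6 h, against 37.6 and 45.1 CPM in sham libraries, a log2 fold change of 0.60 ± 0.07 (adjusted p = 3.9e-05) that held without any 1 library. Rrm2, its partner subunit, had 5.42 and 3.37 CPM in irradiated libraries, against 5.95 and 6.43 CPM in sham libraries, and did not pass (log2 fold change -0.48 ± 0.18, adjusted p = 0.0676). In endothelial libraries of 6 h Rrm1 had 53.8 and 54.5 CPM after irradiation and 43.9 and 48.0 CPM in sham libraries, and did not pass.

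The other 5 calls of 6 h were small, and none held without every single library. Mcm4 was higher, with 35.0 and 34.3 CPM in irradiated fibroblast libraries and 27.9 and 28.9 CPM in sham libraries (log2 fold change 0.28 ± 0.08, adjusted p = 0.0137). Mcm6 was lower, with 22.7 and 24.6 CPM in irradiated libraries and 28.5 and 29.2 CPM in sham libraries (log2 fold change -0.29 ± 0.08, adjusted p = 0.0153). Mcm6 was also the 1 member called lower at 6 h in both cell types, which is 11.1% of the endothelial list and 25% of the fibroblast list. Pola1, the catalytic subunit of polymerase alpha, had 16.1 and 15.5 CPM in irradiated libraries, against 19.0 and 21.1 CPM in sham libraries (log2 fold change -0.34 ± 0.08, adjusted p = 0.00586). Lig1 had 12.7 and 11.9 CPM in irradiated libraries, against 14.4 and 16.6 CPM in sham libraries (-0.34 ± 0.12, adjusted p = 0.0477). Rpa1 had 60.1 and 61.6 CPM in irradiated libraries, against 66.3 and 71.6 CPM in sham libraries (-0.18 ± 0.06, adjusted p = 0.0498). Within each of these 5 genes the groups were apart, which was common at this time. Both irradiated libraries lay above both sham libraries for 10 of the 45 members and below them for 15, beside 30.3% and 29.6% of all genes tested. Without the second sham library 0 members were lower (adjusted p from 0.0513 for Pola1 to 0.258 for Lig1). Without the first irradiated library 1 was higher and 2 lower, and without the second 2 were lower. Mcm4 was lost without either sham library (adjusted p = 0.0559 and 0.05001) or the first irradiated one (adjusted p = 0.0726), Mcm6 also without the first irradiated one (adjusted p = 0.112), Pola1 also without the second irradiated one (adjusted p = 0.0528), and Rpa1 whichever of the 4 libraries was left out.

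At 28 d Uhrf1, Mcm5 and Mcm2 rose in fibroblasts, and all 3 also rose in endothelial cells, which is 100% of the fibroblast list and 16.7% of the 18 endothelial genes. Uhrf1 had 8.20 and 6.19 CPM in irradiated fibroblast libraries, against 2.46 and 2.97 CPM in sham libraries (log2 fold change 1.38 ± 0.22, adjusted p = 0.00172). Mcm5 had 10.503 and 10.6001 CPM in irradiated libraries, against 5.66 and 6.27 CPM in sham libraries (log2 fold change 0.80 ± 0.14, adjusted p = 0.00428). Mcm2 had 10.7 and 11.3 CPM in irradiated libraries, against 6.98 and 7.85 CPM in sham libraries (log2 fold change 0.54 ± 0.11, adjusted p = 0.00942). No library of 1 group entered the range of the other for these 3 genes. Uhrf1 was called whichever library was left out. Without the first sham library it was the 1 call left, with adjusted p = 0.0722 for Mcm5 and 0.127 for Mcm2, and Mcm2 was also lost without the second irradiated library (adjusted p = 0.0825).

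Other members that had risen in endothelial cells did not pass in fibroblasts at 28 d. Rrm2 had 8.28 and 7.61 CPM in irradiated fibroblast libraries, against 4.92 and 5.46 CPM in sham libraries, with groups apart but an adjusted p of 0.102 (log2 fold change 0.59 ± 0.18). Tk1 had 3.93 and 2.63 CPM in irradiated libraries, against 2.07 and 2.00 CPM in sham libraries (log2 fold change 0.67 ± 0.25, adjusted p = 0.227). E2f1 had 6.68 and 6.51 CPM in irradiated libraries, against 6.36 and 5.88 CPM in sham libraries (log2 fold change 0.09 ± 0.14). Pcna, which did not pass in endothelial cells either, had 77.7 and 64.0 CPM in irradiated fibroblast libraries, against 68.3 and 67.6 CPM in sham libraries. In all, 22 of 45 members had both irradiated fibroblast libraries above both sham libraries at 28 d and 3 had both below, beside 26.1% and 17.6% of all genes tested.

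**Figure D5:**
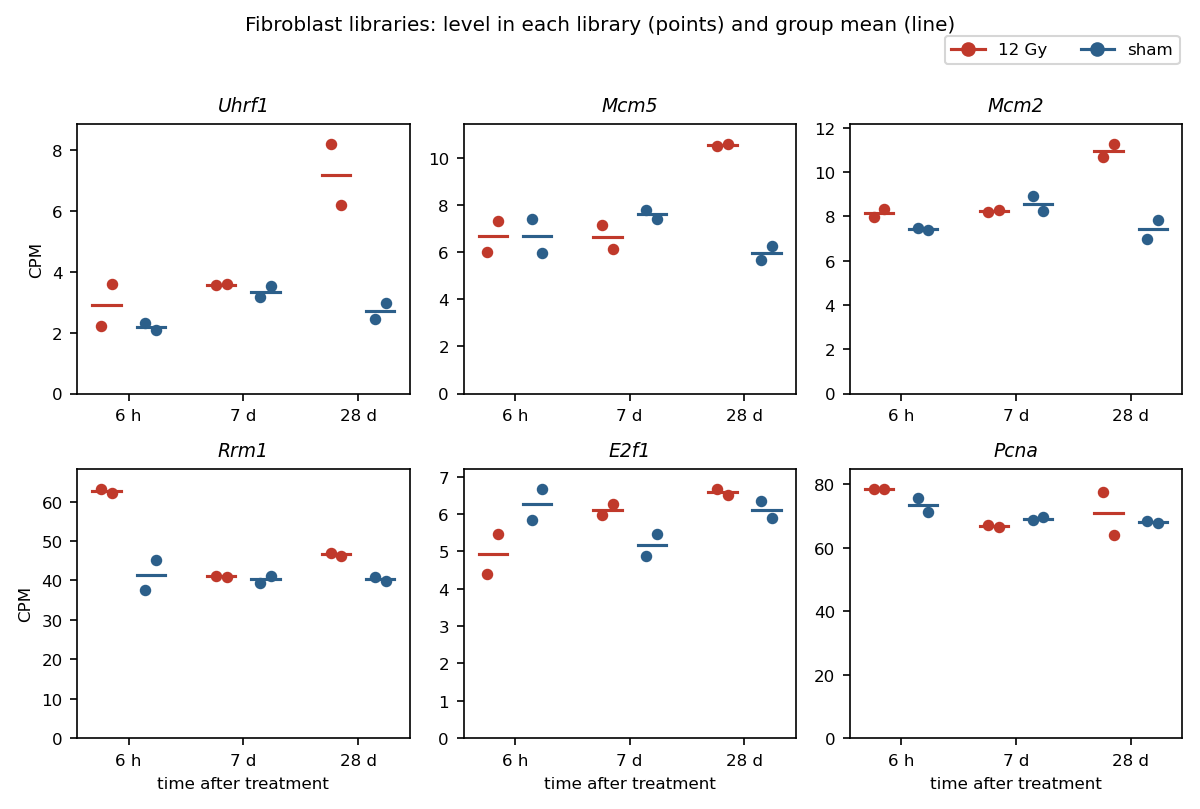
Level in CPM (y axis) of Uhrf1, Mcm5, Mcm2, Rrm1, E2f1 and Pcna in each fibroblast library (points) with the group mean (line), 12 Gy beside sham at 6 h, 7 d and 28 d (x axis). Irradiated libraries of 28 d lie apart from sham for Uhrf1, Mcm5 and Mcm2, those of 6 h for Rrm1 at 62.2 and 63.3 CPM, and Pcna overlaps at 28 d.

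The F-test over the 3 times called 6 members in fibroblasts, beside 9.89% of all genes: Rrm1, Mcm5, Rrm2, Uhrf1, Mcm10 and Mcm2. Leaving out 1 sham library changed its count to 3 (first of 6 h), 3 (second of 7 d), 1 or 2 (first or second of 28 d), and leaving out the first irradiated library of 28 d changed it to 3. Among sham fibroblast libraries edgeR called 0 members over the 3 times, beside 7.19% of all genes, with 6 at an unadjusted p under 0.05.

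Of the other pathway genes in fibroblasts, Ctps had the smallest p of the nucleotide list at 6 h, with 99.6 and 106 CPM in irradiated libraries, against 26.5 and 30.7 CPM in sham libraries (log2 fold change 1.85 ± 0.07, adjusted p = 2.39e-10). Donson, a replication fork protein, was 0.94 ± 0.12 higher (adjusted p = 5.11e-05). By list at 6 h, where 12.3% of all genes were higher and 12.3% lower, the origin genes had 3 higher, the fork genes 2 higher, the nucleotide genes 3 higher and 1 lower, and the E2F and RB genes 6 higher and 6 lower. At 7 d 1 gene of these lists passed, Cdkn1a, higher by 1.48 ± 0.08 (adjusted p = 8.55e-08). At 28 d, beside 2.48% of all genes, 4 genes of the E2F and RB list rose and the other 3 lists had none. Among the 4, E2f7, a repressor of the E2F family, had 1.49 and 1.17 CPM in irradiated libraries, against 0.195 and 0.323 CPM in sham libraries (log2 fold change 2.30 ± 0.47, adjusted p = 0.0122). The mitosis genes had 3 of 10 lower at 6 h, 0 called at 7 d and 9 of 10 higher at 28 d, with a median log2 fold change of 2.42 at 28 d beside 0.09 for the replication genes. Erythroid markers were lower in 2 of 5 cases at 28 d, and summed to 249.8 and 547 CPM in irradiated libraries, against 1759 and 1160 CPM in sham libraries. At 6 h 5 of 10 fibroblast, 6 of 10 smooth muscle and pericyte, 2 of 10 endothelial and 2 of 9 mesothelial markers were lower, and 1 of 10 smooth muscle, 4 of 9 mesothelial and 1 of 7 macrophage markers higher. Fibroblast markers summed to 66621 and 64770.4 CPM in irradiated libraries of 6 h, against 76959 and 72464 CPM in sham libraries. The mean log2(CPM + 1) of endothelial markers was 3.13 and 5.05 in irradiated libraries of 6 h, against 3.60 and 3.76 in sham libraries, so the second irradiated library stood apart. The part of these genes in the results was not tested.

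The effect of irradiation was compared between fibroblasts and endothelial cells in a fit of all 36 libraries. At 6 h 1 member differed with a higher effect in fibroblasts and 0 with a lower one, beside 1.39% and 0.721% of all genes: Uhrf1, with a log2 difference of 1.51 ± 0.37 (adjusted p = 0.0308). At 7 d 0 differed in either direction, beside 0.111% and 0.111% of all genes, with 8 at an unadjusted p under 0.05. At 28 d 0 had a higher and 2 a lower effect in fibroblasts, beside 0.117% and 0.166% of all genes. These were E2f1, with a log2 difference of -1.61 ± 0.27 (adjusted p = 0.00289), and Cdc45, with one of -1.45 ± 0.27 (adjusted p = 0.0092). Cdc45 had 3.64 and 3.70 CPM in irradiated fibroblast libraries of 28 d, against 3.71 and 3.98 CPM in sham libraries. For the other members that rose in endothelial cells alone, no difference between the cell types passed. The 6 h count was 0 without the first endothelial sham library, either endothelial irradiated library, either fibroblast sham library or the second fibroblast irradiated library, and 2 without the second endothelial sham library. The 28 d count of lower effects was 1 without the first endothelial sham, the second endothelial irradiated, the second fibroblast sham or either fibroblast irradiated library, and without the first endothelial irradiated library 1 higher effect was called.

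Across the 45 members, the log2 fold changes of endothelial cells at 28 d went with those of fibroblasts at 28 d (Pearson r = 0.626, Spearman rho = 0.688, n = 45 genes) and against those of endothelial cells at 7 d (r = -0.703, rho = -0.556). The 3 comparisons share no library. Genes are not independent replicates, low members carry larger errors, and the values are a description.

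In myocytes no member passed at any time. At 6 h 0 of 44 tested members were called, beside 0.326% of all 14115 genes higher and 0% lower. At 7 d 0 were called, beside 0.0638% higher and 0.0213% lower, and at 28 d 0, beside 0.0283% higher and 0.00708% lower. DESeq2 and limma also called 0 at each time, and 4, 1 and 1 members had an unadjusted p under 0.05. Orc1 was not tested, since it had too few reads, with 0 reads in 1 myocyte library. The errors were larger than in the other types, with a median SE of the log2 fold change over members of 0.27, 0.28 and 0.27 at 6 h, 7 d and 28 d, against 0.16, 0.17 and 0.17 in endothelial cells, and the libraries were shallower.

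Uhrf1, Mcm5, E2f1 and Rrm2, called in endothelial cells, were followed by library in myocytes. Uhrf1 had 1.56 and 1.65 CPM in irradiated myocyte libraries of 6 h, against 2.25 and 5.01 CPM in sham libraries (log2 fold change -1.18 ± 0.37, adjusted p = 0.677). At 28 d it had 6.16 and 5.23 CPM in irradiated libraries, against 4.32 and 4.20 CPM in sham libraries. Mcm5 had 4.17 and 4.22 CPM in irradiated libraries of 6 h, against 6.35 and 7.44 CPM in sham libraries (log2 fold change -0.73 ± 0.23, adjusted p = 0.678). For both genes the groups were apart at 6 h without passing. At that time 2 of 44 members had both irradiated libraries above both sham libraries and 11 had both below, beside 26.1% and 19.7% of all genes tested. E2f1 had 4.562 and 4.496 CPM in irradiated libraries of 28 d, against 2.85 and 4.02 CPM in sham libraries, and Rrm2 overlapped at 28 d, with 6.24 and 4.33 CPM in irradiated libraries and 2.95 and 6.66 CPM in sham libraries. At 28 d 16 of 44 members had both irradiated libraries above both sham libraries and 3 had both below, beside 20.1% and 15.4% of all genes tested. Without the second irradiated library of 7 d, which left the first of a pair that differed much, 9 members were called higher and 1 lower at 7 d, and the F-test over times called 2. Cdkn1a passed in the same myocyte libraries, higher by 2.15 ± 0.17 at 6 h (adjusted p = 0.000432) and 2.27 ± 0.17 at 7 d (adjusted p = 0.000419).

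Over the 9 comparisons of 12 Gy with sham, 27 of the 45 members were called at least once and 18 in none, with 41 calls in all. Calls in both directions were made for 7 members. Exons of 16 members overlap another annotated gene, and the strand of the kit is not stated, so reads of both genes cannot be told apart there. Among these are Cdc45, Gins2, Pole, Pole2, Fen1, Lig1, Tk1 and Chaf1a.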

How the data were processed

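RNA from cardiac endothelial cells, fibroblasts and myocytes was extracted with an RNeasy kit and made into libraries with a SMARTer mRNA-Seq kit, per the labels' protocols. The authors deposited, for each library, read counts per RefSeq transcript row and a second column headed TPM, whose values equal RPKM computed from those counts and the transcript length, per the file headers. The build is GRCm38 (mm10), per the submitters' processing notes. Which aligner and counter were used is not given in the sources used here. Each library's own read column was used, and 30 further read columns in the files were not.

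For each of 24061 names the row with the most reads over the 36 libraries was kept from 33068 rows, and 14 members have several rows whose counts repeat the same reads. Genes were filtered with filterByExpr (minimum count 10, minimum total 15), scaled by TMM and tested with edgeR's quasi-likelihood test, with Benjamini-Hochberg adjustment over all genes tested and a threshold of 0.05. Each cell type was fitted alone (12 libraries), and contrasts between cell types used all 36 libraries. SEs are the size of the log2 fold change over the square root of F. The fits were checked on simulated counts. Depth was 10.18 to 45.49 M reads per library, and replicate libraries differed beyond counting noise in every group, so none was taken as a duplicate.

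The members and gene lists were chosen with earlier results of these data known. Fold changes and p-values are printed for up to 12 called members per direction by p, for the smallest p of each role, and for a fixed core of members. Other pathway genes are printed for up to 4 called genes per list and direction, besides a few fixed ones. The values of 1 pathway gene are not reported here. Alternatives were other size factors (RLE), DESeq2, limma on log2(RPKM + 1), summed rows, other filters, the replicate number as a block and each library left out. Same-numbered libraries did not deviate together, with correlations of -0.105 to 0.112 over 2 numbers, so the numbers were not taken as pairs. Promoter windows (250 bases before to 50 after a start) are RefSeq's, assembly GRCm38.p6. Tools were R 4.3.3, edgeR 4.0.16, limma 3.58.1, DESeq2 1.42.0, Python 3.11.15, pandas 2.3.3, numpy 2.4.6 and matplotlib 3.10.9.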

Additional observations from a re-analysis of the deposited data

Results flagged for a closer look

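The effect of 12 Gy differed between the 3 times for 17 of the 45 members in endothelial cells, beside 6.26% of all genes. In fibroblasts it differed for 6, beside 9.89% of all genes, a share not far below that of the members. Both counts are from edgeR's F-test with Benjamini-Hochberg adjustment. In endothelial cells the smallest adjusted p-values were those of Rrm2 (3.53e-05), Uhrf1 (0.000145), Tk1 (0.000214), E2f1 (0.000217) and Mcm5 (0.00143). In fibroblasts they were those of Rrm1 (0.00634), Mcm5 (0.0105), Rrm2 (0.0177), Uhrf1 (0.0327) and Mcm10 (0.0349).

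Mcm10 had 0.125 and 0.0733 CPM in irradiated fibroblast libraries of 6 h, against 0.306 and 0.313 CPM in sham libraries. At 28 d it had 0.389 and 0.640 CPM in irradiated libraries, against 0.117 and 0.194 CPM in sham libraries. These levels rest on few reads.

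The effect at 28 d exceeded that at 7 d for 12 members in endothelial cells, beside 1.48% of all genes. Between cell types the effect differed for 1 member at 6 h, Uhrf1 (adjusted p = 0.0308), with a log2 fold change nearer 0 in fibroblasts. At 28 d it differed for 2 members, E2f1 (adjusted p = 0.00289) and Cdc45 (adjusted p = 0.0092), with a higher effect in endothelial cells. Of all genes, 1.39% had a higher effect in fibroblasts at 6 h and 0.166% a lower one at 28 d.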

How the results depend on the processing

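Of the 41 calls of a member, 0 changed direction under any alternative. With 1 library left out at a time 13 of the 41 were called every time, and 31 were called under every other alternative. A further 2, Ccne1 and Mcm10 at 28 d in endothelial cells, were called under each alternative that tested them, but a filter at a mean of 1 CPM removed them. With 2 libraries a group, the calls depended most on single libraries: leaving out 1 gave 1 to 10 lower members at 6 h in endothelial cells, 8 to 24 higher and 0 to 2 lower at 28 d, 10 to 21 in the F-test over times, 9 to 19 in the 28 d over 7 d contrast and 1 to 11 over the sham times. In fibroblasts it gave 1 to 2 higher and 0 to 3 lower at 6 h, 1 to 3 higher at 28 d and 1 to 5 in the F-test. In myocytes it gave 0 to 9 higher and 0 to 1 lower at 7 d and 0 to 2 in the F-test. Between fibroblasts and endothelial cells it gave 0 to 2 higher effects at 6 h, 0 to 1 higher and 1 to 3 lower at 28 d, and 3 to 5 higher members in sham cells. Without the filter on low counts 5 members were lower at 7 d in endothelial cells, and fibroblasts against endothelial cells gave 1 higher effect at 7 d and 4 lower at 28 d. DESeq2 gave 2 lower members at 6 h in fibroblasts and, for fibroblasts against endothelial cells, 2 higher effects at 6 h and 1 higher and 4 lower at 28 d. Limma gave 2 lower members at 6 h in fibroblasts. The cause was not tested.

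The replicate number as a block gave 6 members over the endothelial sham times, 4 higher at 6 h in fibroblasts, 0 higher effects at 6 h in fibroblasts against endothelial cells and 3 higher members in sham fibroblasts against sham endothelial cells. All 41 calls were the same with the block, and the numbers do not show that libraries were paired. Depth limits the members at low levels, such as Ccne1, Mcm10 and Orc1, and all members in myocytes.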
